A study of Rattus norvegicus with 6 samples.

Results

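The genes of glycolysis, of glycogen storage and of glucose and lactate transport were followed in the left ventricle of male Wistar rats. The list held 33 genes. A gene was taken up where the platform annotates at least 1 probe set, the group of short probes that measures a transcript, to that gene alone. This gave 32 genes with 54 probe sets, out of 14217 genes measured in the series. Pyruvate kinase Pkm was left out, because its probe set also carries the symbol of a pseudogene, and Gapdh was measured by array control probe sets alone. The probe set with the highest mean over the 6 arrays stood for each of the other 31 genes, and the remaining ones served as a check.

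All rats started their diet at 6 weeks of age, ate it for 12 weeks, and were fasted overnight before the ventricle was collected at 18 weeks. The 3 groups were a Control diet, a Western diet, and a Western diet that also supplied docosahexaenoic acid (DHA), an omega-class fatty acid abundant in fish. With 10 rats to a diet, 2 arrays were run per diet, both on RNA pooled from 5 animals. What the diets contained besides is not stated in the labels. Values are log2 expression values, so a difference of 1 is a doubling, and errors are standard errors from the limma fit with n = 2 pools per diet. Since 2 pools stand for a diet, p-values measure the spread between pools and not between rats. The ventricular cardiomyocyte markers were bright on every array, with 8 of 8 measured markers above 5.34, the median over all probe sets and called the median level here, and a mean between 13.36 and 13.45.

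Glycolysis splits glucose into pyruvate, beginning with its capture by hexokinase and passing a committed step at phosphofructokinase. The heart oxidises mainly fatty acids, and it draws on glucose, stored glycogen and circulating lactate in proportions that shift with feeding, workload and oxygen supply. The glucose carriers and the hexokinases set how much glucose enters the cell as glucose phosphate, while glycogen phosphorylase releases it from the store.

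In Western plus DHA, 5 of the 6 genes of upper glycolysis (Hk1, Hk2, Gpi, Pfkm and Pfkl, but not Pfkp) and 3 of the 8 genes of glycogen (Pygm, Pygb and Gaa) lay below both other diets on both arrays, though none passed the test, while the lactate dehydrogenases differed by under 0.1 between any diets. The hexokinase gene Hk1 had a log2 difference of -0.76 ± 0.19 between Western plus DHA and Control and of -0.61 ± 0.19 between Western plus DHA and Western. In 10 of the 31 genes, Hk1, Hk2, Gpi, Pfkm, Pfkl, Pgk1, Eno1, Pygm, Pygb and Gaa, both Western plus DHA arrays lay below the other 4 arrays, as they did for 8.12% of all genes and 10.8% of genes at or above the median level. The aldolase gene Aldoc was the 1 gene with both Western plus DHA arrays above the other 4, as held for 11.7% and 10.7% of these. None of the 31 genes passed the limma test at an adjusted p under 0.05 in any comparison, and 0.00322% of all probe sets passed for Western plus DHA against Control, 0% for Western plus DHA against Western and 0% for Western against Control. The lowest adjusted p among the 31 genes, by limma with Benjamini-Hochberg adjustment over all probe sets, was 0.562 for Western plus DHA against Control, 0.983 for Western plus DHA against Western and 1 for Western against Control. An F test over the 3 diets called 0 of the 31 genes, with a lowest adjusted p of 0.900.

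For Western plus DHA against Control, 23 of the 31 genes had a log2 difference below 0, where 43.3% of all genes did and 51.4% of genes at or above the median level, the kind that 29 of the 31 genes are. The median over the 31 genes was -0.12, beside 0.03 over all genes and -0.007 over those at or above the median level. Both arrays lay below both Control arrays for 11 genes, where this holds for 14.3% of all genes, and above them for 2 genes, Aldoc and Slc16a3, where it holds for 22.3%. Among genes at or above the median level these shares were 18.2% and 17.2%. At an unadjusted p under 0.05, 6 genes were lower (Hk1, Hk2, Gpi, Pfkl, Pygm and Gaa), where 3.99% of all genes and 5.5% of those at or above the median level were. Aldoc alone was higher, where 4.46% of all genes were, and 275 of the 9308 at or above the median level. For Western plus DHA against Western, 21 genes had a difference below 0. Over all genes 46.7% did, and over those at or above the median level 50.5%. The median was -0.11, beside 0.01 over all genes and -0.002 over those at or above the median level. Both arrays lay below both Western arrays for 11 genes, where 15.9% of all genes did so, and above them for 3, Aldoc, Ldhb and Ugp2, where 20.9% did. Among genes at or above the median level they were 18.4% and 20.7%. At an unadjusted p under 0.05, 4 genes were lower here (Hk1, Hk2, Gpi and Eno1), where 1.46% of all genes and 1.7% of those at or above the median level were. Higher were 0, where 2.06% of all genes were, and 120 of the 9308 at or above the median level.

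Western against Control differed less. In it 20 genes had a difference below 0, where 47.9% of all genes did and 54.2% of those at or above the median level. The median was -0.04, beside 0.01 over all genes and -0.013 over those at or above the median level. By limma 0 genes lay under an unadjusted p of 0.05, where 0.591% of all genes were lower and 1.39% higher. Among the 9308 at or above the median level 0.494% were lower and 56 genes were higher. Both arrays lay below both Control arrays for 2 genes, Ldhb and Pgk1, where 11.9% of all genes did, and above them for 4, where 16.6% did, or 13.5% and 12.2% of genes at or above the median level. The latter were Slc2a1, Slc16a1, Pfkfb3 and Aldoc. The comparisons against Control share the Control arrays, and the comparisons of Western plus DHA share its arrays. The diets ran in the order Western plus DHA, Western, Control from low to high in 15 of the 31 genes, and in 21.2% of all genes. That share was not taken among genes at or above the median level, where 29 of the 31 lie.

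**Figure D1:**
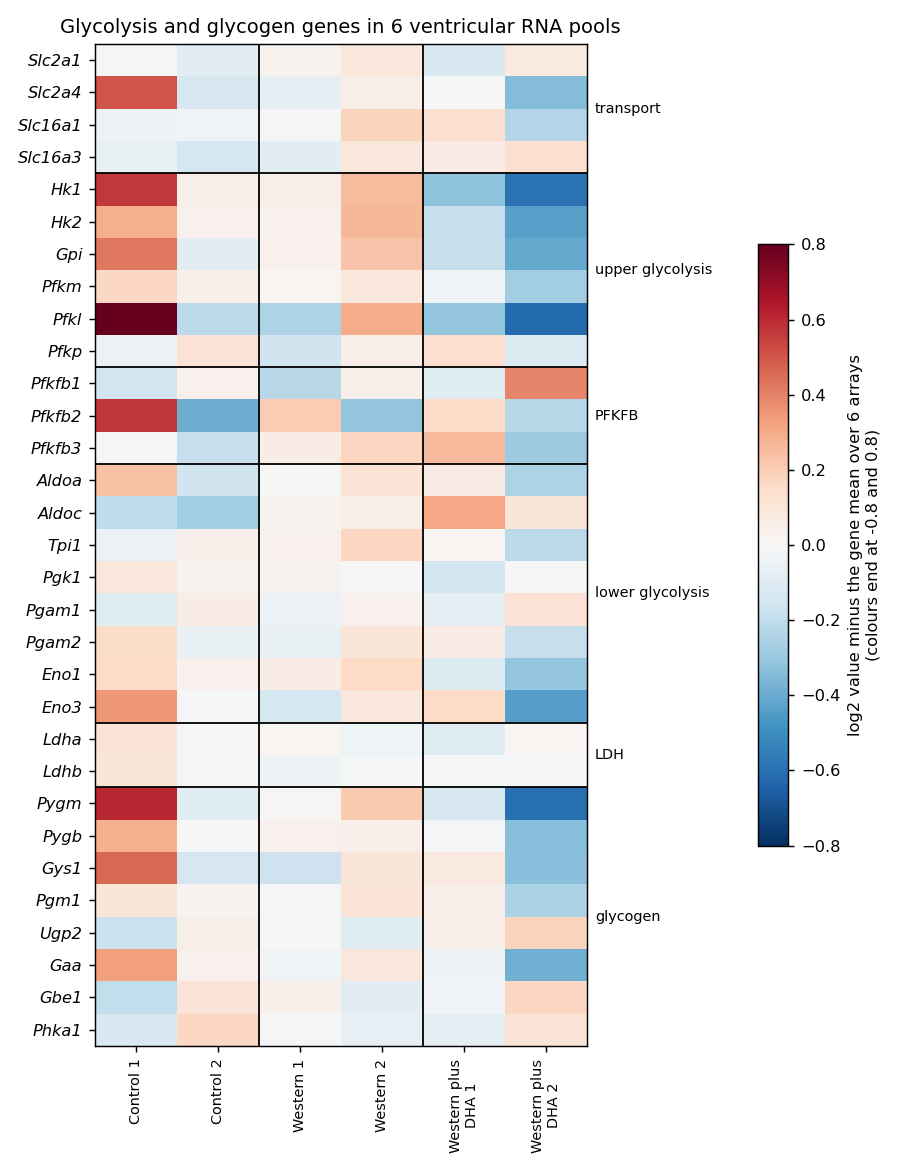
Log2 value of each of 31 genes on each of the 6 arrays (columns), minus the mean of that gene over the 6 arrays, in colour from blue (below the mean) to red (above it); horizontal lines part the roles and vertical lines the diets. The column of Western plus DHA 2 is the lowest for 18 genes and that of Control 1 the highest for 17, and Pfkl in Control 1 lies beyond the end of the colour scale.

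The arrays of a diet differed as well. Over the 31 genes the median deviation from the gene mean was 0.11 in Control 1 and -0.01 in Control 2, 0.01 in Western 1 and 0.09 in Western 2, and -0.02 in Western plus DHA 1 and -0.23 in Western plus DHA 2. The same median over all genes at or above the median level stayed between -0.04 and 0.03. Control 1 was the highest of the 6 arrays for 17 of the 31 genes and Western plus DHA 2 the lowest for 18. Without Control 1, 1 gene was lower at an unadjusted p under 0.05 for Western plus DHA against Control, and the median was -0.04. Without Control 2 there were 9 such genes, and without Western plus DHA 2 there was 1, with a median of -0.06. For Western plus DHA against Western, 0 genes were lower at an unadjusted p under 0.05 without Western plus DHA 2, with a median of -0.01, 0 without Western 2 and 2 without Western 1. Without both Control 1 and Western plus DHA 2, 19 genes had a difference below 0 for Western plus DHA against Control, 0 of them at an unadjusted p under 0.05, and the median was -0.03.

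**Figure D2:**
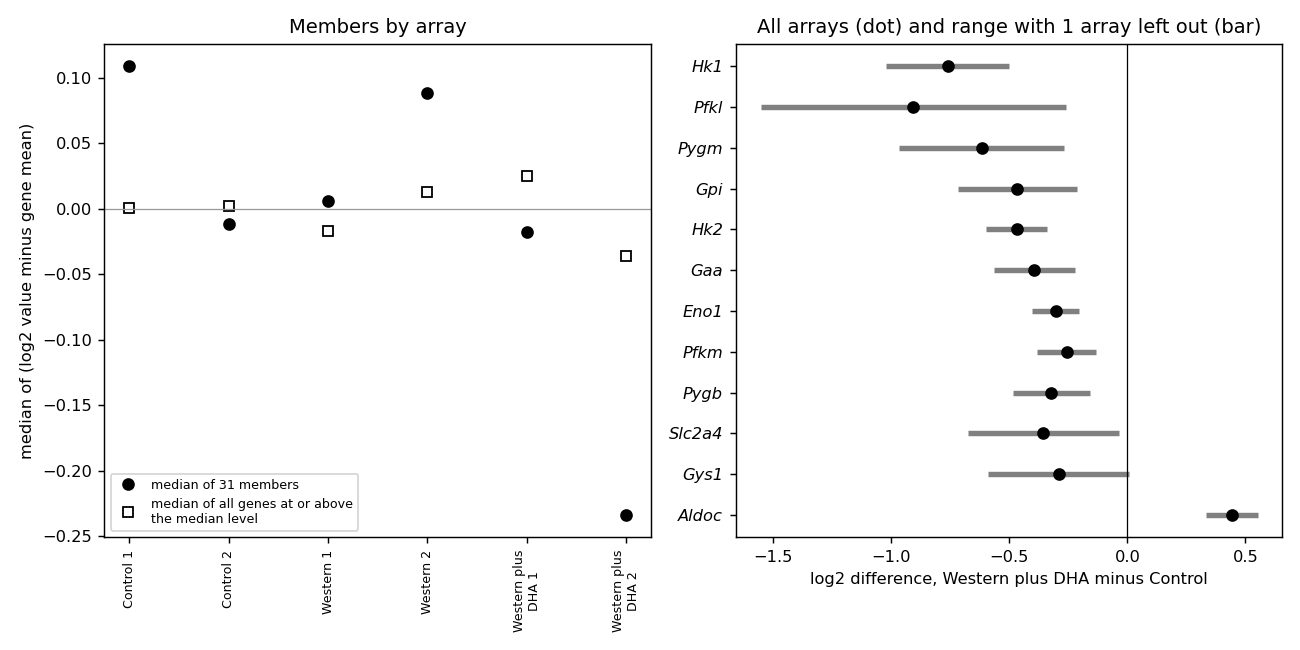
Left, the median over 31 genes (filled circles) and over all genes at or above the median level (open squares) of the log2 value minus the gene mean, for each array; right, the log2 difference between Western plus DHA and Control with all arrays (dot) and its range when 1 array was left out (bar). Control 1 (0.11) and Western plus DHA 2 (-0.23) are the ends of the left panel, and among the 12 genes drawn the bar of Gys1 alone reaches 0.

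Control 1 also stood apart in part of the comparisons between 3' and 5' control probe sets. The log2 difference between the 3' and 5' control probe sets of Gapdh was 0.68 there and 0.30 to 0.47 on the other arrays, and that of the spiked-in control transcripts was 1.06 there and 0.72 to 0.80 elsewhere. For beta-actin it was 1.82 in Control 1 and 1.87 in Western plus DHA 1, with 1.48 to 1.54 on the other arrays, and for the hexokinase control it was 2.28 in Control 1 and 1.89 to 2.27 on the others. The spiked-in transcripts do not come from the rat tissue, so these values are not a measure of tissue RNA quality alone. How far they enter the differences from Control was not tested.

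Marker genes of several cell types also differed between Western plus DHA and Control. Of 7 measured epicardial markers 6 lay higher on both of its arrays than on both Control arrays, where 22.3% of all genes did, and their mean level was 4.24 and 4.24 in Control, 4.24 and 4.33 in Western, and 4.79 and 4.52 in Western plus DHA. Of 5 erythroid markers 4 did, with means of 8.10 and 8.05, 8.26 and 8.31, and 8.43 and 8.52 in the same order, and of 3 atrial markers 3 did, with means of 7.54 and 7.89, 6.25 and 8.93, and 9.36 and 8.86. Of 6 neutrophil markers 4 did, with means of 3.56 and 3.78, 3.94 and 4.04, and 3.94 and 3.93. Of 7 adipocyte markers 3 did, with means of 5.29 and 5.31, 5.78 and 5.78, and 5.60 and 5.50. Only 2 of the epicardial, 1 of the neutrophil and 3 of the adipocyte markers were at or above the median level, against 4 of the erythroid and 3 of the atrial markers. Among all genes at that level 17.2% were higher in this way, so the share among dimmer genes exceeds 22.3%. In Western against Control, 4 of the 6 neutrophil and 5 of the 7 adipocyte markers were higher on both arrays. So were 3 of the epicardial, 2 of the erythroid and 0 of the atrial markers, and 16.6% of all genes or 12.2% of those at or above the median level. Of 6 smooth muscle markers 4 lay lower on both Western plus DHA arrays than in Control. Of all genes 14.3% did, and of those at or above the median level 18.2%. The means of the 6 were 7.65 and 7.32, 7.17 and 7.49, and 7.10 and 7.06. Of 8 ventricular cardiomyocyte markers 3 lay lower in the same way, with means of 13.45 and 13.42, 13.42 and 13.44, and 13.39 and 13.36. Higher on both arrays were 3 of 7 fibroblast, 2 of 8 macrophage, 2 of 8 skeletal muscle and 1 of 6 endothelial markers. Lower on both was 1 skeletal muscle marker. The part of these cells in the results was not tested. In tissue of this kind, fewer cells of a type and less RNA per cell cannot be told apart.

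Glucose enters the cardiomyocyte through 2 carriers of the list. Slc2a4 encodes GLUT4, the carrier that insulin brings to the surface of muscle and fat cells. It read 10.74 and 10.10 in Control, 10.16 and 10.29 in Western, and 10.24 and 9.89 in Western plus DHA. Control 1 was its highest array and Western plus DHA 2 its lowest, but Control 2 lay below Western plus DHA 1, so the diets overlapped. The difference between Western plus DHA and Control was -0.36 ± 0.22. That difference was -0.04 without Control 1. A second, dimmer probe set of Slc2a4 read 8.72 and 8.52 in Control, 8.51 and 8.84 in Western, and 8.38 and 7.92 in Western plus DHA. Here both Western plus DHA arrays lay below the other 4, with differences of -0.47 ± 0.19 from Control and -0.52 ± 0.19 from Western, beside -0.16 from Western for the brighter one. Between Western and Control the dimmer set differed by 0.05 and the brighter one by -0.20. The basal carrier GLUT1, encoded by Slc2a1, read 6.90 and 6.81 in Control, 6.93 and 6.99 in Western, and 6.78 and 6.97 in Western plus DHA. All 6 values lay within 0.21 of each other, and its difference between Western plus DHA and Control was 0.01 (95% interval -0.28 to 0.31).

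Hexokinases trap glucose as glucose phosphate. Hk1, the form found in most tissues and bound to mitochondria, read 9.37 and 8.85 in Control, 8.86 and 9.06 in Western, and 8.49 and 8.22 in Western plus DHA on its brightest probe set. Both Western plus DHA arrays lay below the other 4, the level being 0.59 times that of Control and 0.657 times that of Western, at unadjusted p values of 0.00388 and 0.0128 by limma. Western and Control overlapped (-0.15 ± 0.19). The Hk1 transcript is also covered by 3 array control probe sets, placed at the 3' end, the middle and the 5' end. The 3' set read 6.66 and 6.20 in Control, 6.01 and 6.21 in Western, and 5.58 and 5.51 in Western plus DHA. The middle set read 6.85 and 6.71 in Control, 6.64 and 6.64 in Western, and 6.31 and 6.58 in Western plus DHA, and the 5' set, below the median level, 4.38 and 4.31 in Control, 3.75 and 3.94 in Western, and 3.31 and 3.48 in Western plus DHA. On all 3, both Western plus DHA arrays were below the other 4. Their differences from Control were -0.88 ± 0.17, -0.33 ± 0.14 and -0.95 ± 0.13, with a lowest adjusted p of 0.382 by limma when control probe sets were kept in the fit. The 3' and 5' sets are among the 66 probe sets that the authors' deposited table lists. Another, dim probe set of Hk1 at a mean of 4.55 had differences above 0, of 0.30 ± 0.14 from Control and 0.06 from Western, and of 0.24 between Western and Control.

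Hk2, the hexokinase that insulin induces in muscle, lay near the median level at 5.60 and 5.34 in Control, 5.34 and 5.57 in Western, and 5.12 and 4.87 in Western plus DHA. Its Western plus DHA arrays were again the lowest of the 6, at -0.47 ± 0.16 from Control and -0.46 ± 0.16 from Western (unadjusted p values of 0.0167 and 0.0186 by limma), while Western differed from Control by -0.01. Gpi, which turns glucose phosphate into fructose phosphate, read 11.57 and 11.06 in Control, 11.18 and 11.37 in Western, and 10.96 and 10.74 in Western plus DHA. It showed the same arrangement, with -0.47 ± 0.18 from Control, -0.43 ± 0.18 from Western and -0.04 between Western and Control. With 1 array left out, the difference from Control ranged from -1.02 to -0.50 for Hk1, from -0.60 to -0.34 for Hk2 and from -0.72 to -0.21 for Gpi, with the smallest sizes without Control 1.

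Hk1, Hk2 and Gpi were the 3 genes under an unadjusted p of 0.05 in both comparisons of Western plus DHA, and their promoters are shown for that reason. Each runs from 250 bases before to 50 bases after a RefSeq transcript start in assembly GRCr8, 5′ to 3′ on the gene's own strand, here the minus strand for each. Capitals mark GC boxes (GGGCGG on either strand), the sites of SP1-type factors. Hk1 has 2 annotated starts, at chr20:30842023-30842322 and chr20:30874765-30875064. The Hk2 window is chr4:116841226-116841525 and that of Gpi is chr1:95993212-95993511.
Hk1, GC-rich start: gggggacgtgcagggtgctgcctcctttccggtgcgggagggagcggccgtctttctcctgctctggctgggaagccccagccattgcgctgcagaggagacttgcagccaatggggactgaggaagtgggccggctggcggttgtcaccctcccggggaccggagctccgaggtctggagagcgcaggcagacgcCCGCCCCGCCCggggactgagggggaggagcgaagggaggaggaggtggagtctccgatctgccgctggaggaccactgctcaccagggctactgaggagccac
Hk1, other start: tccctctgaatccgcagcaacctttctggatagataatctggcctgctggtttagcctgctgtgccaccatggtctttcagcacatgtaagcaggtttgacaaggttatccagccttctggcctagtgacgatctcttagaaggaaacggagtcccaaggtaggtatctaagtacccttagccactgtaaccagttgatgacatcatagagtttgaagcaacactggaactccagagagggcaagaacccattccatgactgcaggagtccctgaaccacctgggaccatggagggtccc
Hk2: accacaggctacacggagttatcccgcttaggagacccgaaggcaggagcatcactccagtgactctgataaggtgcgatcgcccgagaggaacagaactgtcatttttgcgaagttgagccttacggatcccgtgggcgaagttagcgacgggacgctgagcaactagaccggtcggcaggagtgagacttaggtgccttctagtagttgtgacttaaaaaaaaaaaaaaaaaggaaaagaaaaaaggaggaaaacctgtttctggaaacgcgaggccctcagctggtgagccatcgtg
Gpi: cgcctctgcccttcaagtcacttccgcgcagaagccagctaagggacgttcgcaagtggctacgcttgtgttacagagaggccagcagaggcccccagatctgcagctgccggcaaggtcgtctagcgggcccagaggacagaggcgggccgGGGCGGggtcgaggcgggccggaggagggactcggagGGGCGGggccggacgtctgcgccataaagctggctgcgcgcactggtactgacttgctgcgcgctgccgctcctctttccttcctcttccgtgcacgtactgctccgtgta
The first Hk1 window and the Gpi window each hold 2 GC boxes, and the other 2 windows hold 0. The windows differ in base composition, with 69.3% G and C in the first Hk1 window and 66.7% in that of Gpi, against 50.7% in the second Hk1 window and 51.0% in that of Hk2, beside a median of 51.7% over all promoters. The 30 member genes with an entry have 34 such windows, of which 20 (58.8%) hold GGGCGG on either strand, as do 33.1% of 33469 promoters. The E-box CACGTG, which carbohydrate-responsive and MYC-type factors bind, was found in 4 of the 34 windows (11.8%) and in 6.42% of all promoters, and in none of the 4 windows shown. ACGTG, the core of hypoxia response elements, which CACGTG contains, was found in 17 of the 34 windows (50%) and in 19.3% of all promoters. It occurs once in the first Hk1 window and once in that of Gpi. The other form of that core, GCGTG, was found in 16 windows (47.1%) and in 29.7% of all promoters. The CCAAT box was found in 15 windows (44.1%) and in 37.5% of all promoters. The TATA box TATAAA was found in 5 windows (14.7%) and in 14.2%, and the ERR element TCAAGGTCA in 0 and in 0.433%. The member windows are richer in G and C, with a median of 60.5%. These matches are descriptions of letters and were set against no measurement of binding.

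Phosphofructokinase makes the committed step of glycolysis, and its muscle, liver and platelet subunits are encoded by Pfkm, Pfkl and Pfkp. Pfkm read 11.62 and 11.49 in Control, 11.47 and 11.53 in Western, and 11.42 and 11.17 in Western plus DHA. Its difference was -0.26 ± 0.14 from Control and -0.20 ± 0.14 from Western, with both Western plus DHA arrays lowest. The next brightest Pfkm probe set separated the diets more widely, at 10.11 and 10.18 in Control, 9.82 and 9.92 in Western, and 9.51 and 9.42 in Western plus DHA. Its difference of -0.68 ± 0.12 from Control had the smallest unadjusted p (0.000475) of the 48 tested member probe sets, with an adjusted p of 0.515 by limma, and both Western arrays also lay below both Control arrays (-0.28 ± 0.12). Among the 66 in the authors' deposited table it is the other probe set of a member gene. A dim set of Pfkm differed by 0.04 from Control and 0.14 from Western. Pfkl had the widest range of all members, 7.96 and 6.66 in Control, 6.62 and 7.17 in Western, and 6.56 and 6.25 in Western plus DHA. Control 1 lay far above Control 2, and the difference of -0.91 ± 0.37 between Western plus DHA and Control was -0.26 without Control 1 and -1.55 without Control 2. Between Western and Control Pfkl differed by -0.42 ± 0.37, and by 0.23 without Control 1. Pfkp differed by -0.02 from Control, 0.06 from Western and -0.09 between Western and Control.

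**Figure D3:**
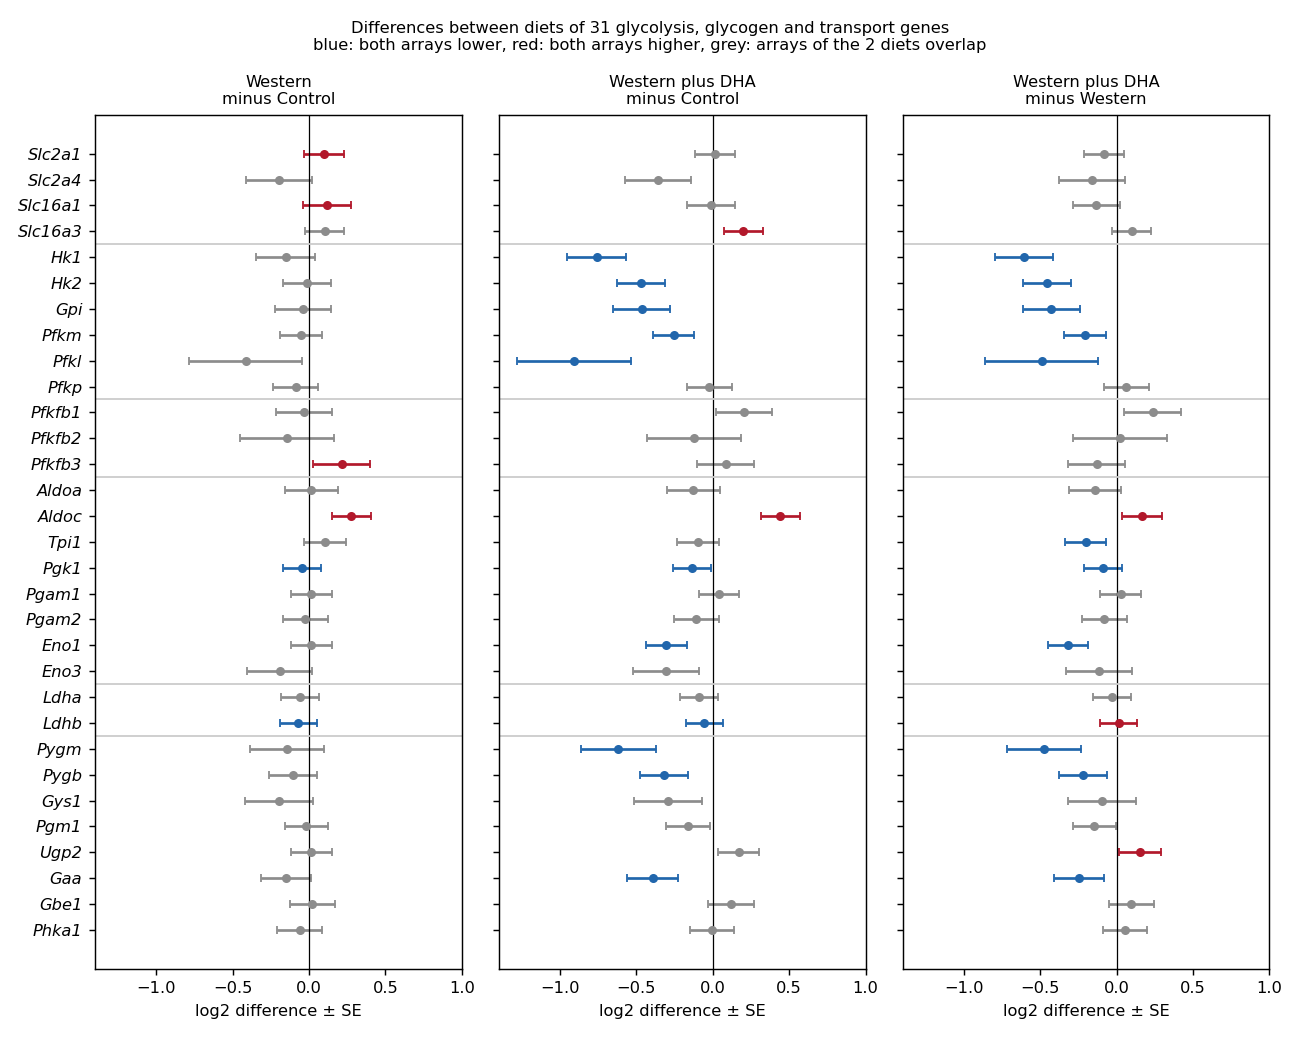
Log2 difference ± SE of the 31 genes (rows, ordered by role) for the 3 comparisons, with blue where both arrays of the first diet lay below both of the second, red where both lay above and grey where they overlapped. Blue rows number 2 for Western against Control and 11 in each of the other comparisons, with 5 of the latter in upper glycolysis each time and 3 in glycogen.

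The bifunctional enzymes of the PFKFB family make and remove the sugar phosphate that switches phosphofructokinase on, and their genes gave no common direction. Pfkfb1, known from liver and muscle, read 6.43 and 6.62 in Control, 6.36 and 6.62 in Western, and 6.48 and 6.97 in Western plus DHA. Western plus DHA 2 alone was high, and without it the difference of 0.20 from Control became -0.04. The heart form Pfkfb2 read 6.03 and 5.07 in Control, 5.67 and 5.15 in Western, and 5.62 and 5.24 in Western plus DHA, with the arrays of each diet far apart. Its difference from Control was -0.12 ± 0.31 for Western plus DHA and -0.15 ± 0.31 for Western. Dimmer Pfkfb2 sets differed by 0.17, 0.06 and 0.09 between Western and Control, by -0.14, -0.05 and 0.04 between Western plus DHA and Control, and by -0.31, -0.11 and -0.05 between Western plus DHA and Western, where the brightest had 0.02. Pfkfb3, the inducible form, read 6.32 and 6.15 in Control, 6.39 and 6.51 in Western, and 6.60 and 6.04 in Western plus DHA. Both Western arrays lay above both Control arrays (0.21 ± 0.19), and Western plus DHA held the highest and the lowest value of the 6. Its other sets differed by 0.17 and -0.01 between Western and Control, by 0.25 and -0.09 between Western plus DHA and Control, and by 0.08 and -0.08 between Western plus DHA and Western.

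Among the enzymes after phosphofructokinase, the aldolase genes had differences of opposite sign between Western plus DHA and Control. Aldoa, the muscle aldolase, read 13.48 and 13.09 in Control, 13.25 and 13.36 in Western, and 13.32 and 13.00 in Western plus DHA, and the diets overlapped with a difference of -0.13 ± 0.17. Aldoc, the aldolase best known from brain, read 5.32 and 5.25 in Control, 5.55 and 5.57 in Western, and 5.83 and 5.62 in Western plus DHA. It ran in the order Control, Western, Western plus DHA with no overlap between diets, at 0.28 ± 0.13 for Western against Control, 0.44 ± 0.13 for Western plus DHA against Control (unadjusted p = 0.00872 by limma) and 0.17 ± 0.13 for Western plus DHA against Western. With 1 array left out, the Western plus DHA difference from Control stayed between 0.33 and 0.55.

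Triose phosphate isomerase Tpi1 differed by -0.10 from Control and -0.20 from Western in Western plus DHA, with both of its arrays below both Western arrays. Gapdh, the dehydrogenase of the pathway and a common reference gene in expression studies, was read by its control probe sets alone. The 3' set read 13.49 and 13.35 in Control, 13.36 and 13.38 in Western, and 13.30 and 13.20 in Western plus DHA. The middle set read 13.47 and 13.35 in Control, 13.32 and 13.34 in Western, and 13.24 and 13.08 in Western plus DHA. On both, the Western plus DHA arrays were the lowest, at -0.17 ± 0.12 and -0.25 ± 0.13 from Control. The 5' set, where Control 1 was low, read 12.82 and 13.04 in Control, 13.00 and 12.97 in Western, and 12.85 and 12.74 in Western plus DHA and overlapped, at -0.14 ± 0.13. Between Western and Control the 3', middle and 5' sets differed by -0.05, -0.08 and 0.06. Phosphoglycerate kinase Pgk1, an ATP-forming step, differed by -0.14 from Control and -0.09 from Western, and by -0.05 between Western and Control. A set of Pgk1 at a mean of 2.19 differed by 0.10 in the last comparison.

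Neither phosphoglycerate mutase separated the diets. Pgam1 had 0.04 between Western plus DHA and Control, and the muscle form Pgam2 read 12.17 and 11.96 in Control, 11.96 and 12.12 in Western, and 12.09 and 11.84 in Western plus DHA (-0.11 ± 0.15). Of the enolases, Eno1 read 11.71 and 11.58 in Control, 11.61 and 11.71 in Western, and 11.44 and 11.24 in Western plus DHA. Both of its Western plus DHA arrays were below the other 4, at -0.30 ± 0.13 from Control and -0.32 ± 0.13 from Western, with an unadjusted p of 0.042 by limma in the latter. Eno3, the muscle enolase, read 11.27 and 10.91 in Control, 10.79 and 11.01 in Western, and 11.08 and 10.49 in Western plus DHA. Western plus DHA 2 was its lowest array and Western plus DHA 1 its second highest, so its difference of -0.31 ± 0.21 from Control was -0.01 without Western plus DHA 2.

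Lactate dehydrogenase interconverts pyruvate and lactate. Ldhb, the heart subunit, had the narrowest range of the 31 genes, 13.62 and 13.51 in Control, 13.49 and 13.51 in Western, and 13.51 and 13.51 in Western plus DHA. Its difference between Western plus DHA and Control was -0.06 ± 0.12 (95% interval -0.33 to 0.22). The muscle subunit gene Ldha read 12.85 and 12.73 in Control, 12.76 and 12.71 in Western, and 12.64 and 12.75 in Western plus DHA, with a difference of -0.09 ± 0.12 (95% interval -0.37 to 0.20). Lactate crosses the membrane through monocarboxylate transporters. Slc16a1 (MCT1), the form that takes lactate into the heart, read 10.81 and 10.82 in Control, 10.84 and 11.03 in Western, and 10.99 and 10.62 in Western plus DHA. Western plus DHA held both its second highest and its lowest array, and the difference from Control was -0.01 ± 0.16 (95% interval -0.37 to 0.34). A dim second set differed by 0.05. Slc16a3 (MCT4), the form of glycolytic muscle that exports lactate, lay just under the median level and differed by 0.20 ± 0.13, with both Western plus DHA arrays above both Control arrays.

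Of the 8 genes of glycogen, 6 had a difference below 0 between Western plus DHA and Control, with a median of -0.23, and 0 passed the test. The 6 genes of upper glycolysis had a median of -0.47 with 6 below 0, the 8 tested genes of lower glycolysis one of -0.12 with 6 below 0, the 3 of the PFKFB family one of 0.08 with 1 below 0, and the 4 transporters one of 0.001 with 2 below 0. The muscle glycogen phosphorylase Pygm, which frees glucose phosphate from the store and is the gene of McArdle disease in humans, read 12.41 and 11.71 in Control, 11.82 and 12.02 in Western, and 11.68 and 11.20 in Western plus DHA. Both Western plus DHA arrays were the lowest, though Western plus DHA 1 lay close under Control 2. The difference was -0.62 ± 0.24 from Control and -0.47 ± 0.24 from Western, and the former was -0.27 without Control 1. The other sets of Pygm read lower still in Western plus DHA. One read 11.88 and 10.87 in Control, 10.84 and 11.07 in Western, and 10.44 and 10.09 in Western plus DHA, and the other 10.41 and 9.35 in Control, 9.19 and 9.59 in Western, and 8.74 and 8.36 in Western plus DHA. In both of these sets Control 1 lay far above Control 2, so their differences from Control rest in part on that array. The differences were -1.11 ± 0.29 and -1.33 ± 0.32 from Control and -0.69 and -0.84 from Western. Between Western and Control they were -0.42 and -0.49, where the brightest set had -0.14.

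Pygb, the brain form of phosphorylase, differed by -0.32 ± 0.16 from Control and -0.22 ± 0.16 from Western. Phosphorylase kinase, which activates phosphorylase, was followed through its muscle alpha subunit Phka1, which read 6.93 and 7.22 in Control, 7.04 and 6.99 in Western, and 6.98 and 7.16 in Western plus DHA and overlapped between the diets (-0.01 from Control). Its second set differed by -0.37 ± 0.14 from Control and -0.09 from Western, where the brighter one had 0.06. Glycogen synthase Gys1, the muscle form, read 9.21 and 8.61 in Control, 8.58 and 8.85 in Western, and 8.82 and 8.42 in Western plus DHA. Control 1 was high, and the difference of -0.29 ± 0.22 became 0.01 without it. The branching enzyme gene Gbe1 read 10.53 and 10.83 in Control, 10.76 and 10.64 in Western, and 10.71 and 10.89 in Western plus DHA, 0.12 ± 0.15 from Control. Ugp2, which makes the activated glucose for synthesis, had 0.17 ± 0.14 from Control and 0.15 from Western. Pgm1, which links glucose phosphate to the store, differed by -0.16 ± 0.14 from Control, with overlapping arrays. A second, dimmer Pgm1 set read 9.06 and 8.90 in Control, 8.71 and 8.86 in Western, and 8.62 and 8.49 in Western plus DHA. Its differences were -0.42 ± 0.13 from Control and -0.22 ± 0.13 from Western, with both Western plus DHA arrays lowest. Gaa, the lysosomal enzyme that digests glycogen and is deficient in Pompe disease, read 9.10 and 8.80 in Control, 8.74 and 8.86 in Western, and 8.73 and 8.38 in Western plus DHA. Its Western plus DHA arrays were the lowest, at -0.39 ± 0.16 from Control (unadjusted p = 0.0424 by limma) and -0.24 ± 0.16 from Western. A dimmer Gaa set read 7.31 and 6.52 in Control, 6.43 and 6.49 in Western, and 6.06 and 5.78 in Western plus DHA. It differed by -1.0005 ± 0.24 from Control and by -0.46 ± 0.24 between Western and Control, where the brighter set had -0.15.

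Probe sets of one gene did not give the same size. Besides the 31 that stood for their genes, 17 further sets of 11 genes were tested, and 9 of them, from 8 genes, were at or above the median level. Of these 9, both Western plus DHA arrays lay below both Control arrays in 8, as did 30.1% of the further sets at that level of all genes. The difference was lower than on the brightest set in 7 of the 9, where it was lower for 62.2%. Over the 17 sets, 12 had a difference below 0, where 50.8% of all further sets did. Of the 17, 7 were lower at an unadjusted p under 0.05, where 8.72% were, with a lowest adjusted p of 0.515 by limma.

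**Figure D4:**
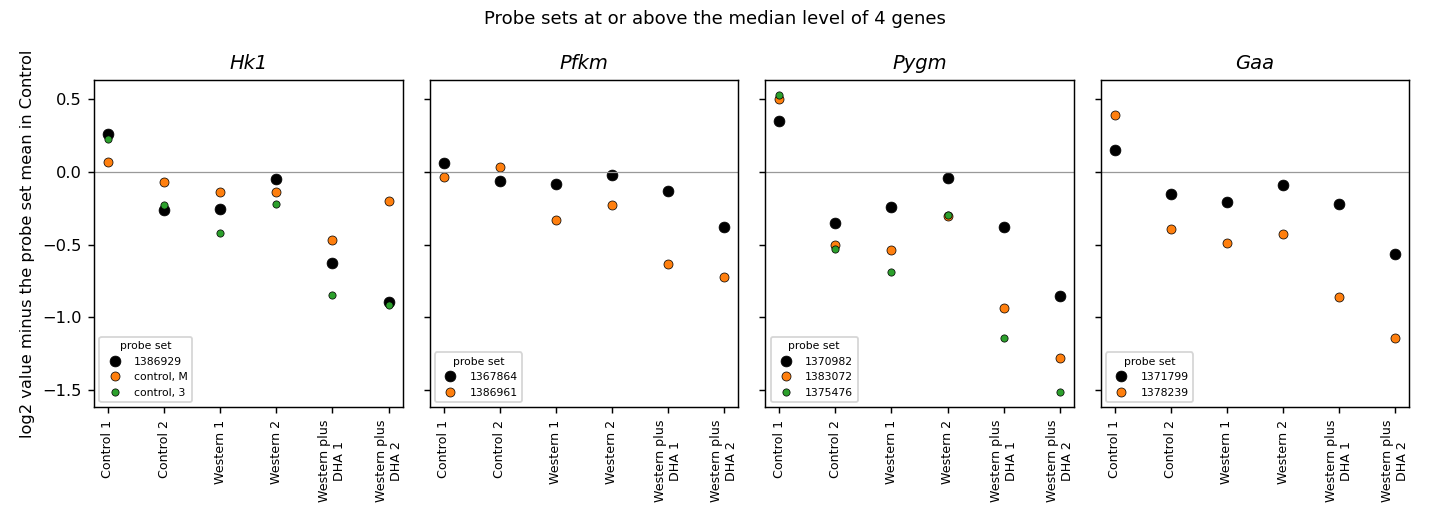
Log2 value minus the Control mean of the same probe set on each array, for the probe sets of Hk1, Pfkm, Pygm and Gaa at or above the median level (black, the brightest set; orange and green, further sets). Western plus DHA lies below Western and Control in every set drawn, with the lowest points at the dimmest Pygm set, and Control 1 lies above Control 2 in all sets but the second of Pfkm.

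A wider list of the pathway held 57 further genes, of which 48 were measured, and 0 passed the test in any comparison. Between Western plus DHA and Control 22 of them had a difference below 0, where 43.3% of all genes did, and 26 above it, with a median of 0.02. At an unadjusted p under 0.05 by limma, 3 were higher and 0 lower, where 4.46% and 3.99% of all genes were, so the count of higher genes was near the background. The smallest p values there belonged to Emb (0.40 ± 0.16), a partner protein of lactate transporters, Pgm2 (0.36 ± 0.15), a relative of Pgm1, Slc2a13 (0.32 ± 0.14), a carrier of inositol, and Gpd1 (-0.34 ± 0.15), which links glycolysis to glycerol. Between Western plus DHA and Western, 21 lay below 0 and the median was 0.03. The leading genes were Phkg2 (-0.35 ± 0.15), a catalytic subunit of phosphorylase kinase, Pgm2 (0.31 ± 0.15), Tbc1d4 (-0.28 ± 0.14), which restrains the movement of GLUT4 to the surface, and Pfkfb4 (-0.35 ± 0.18). Between Western and Control, 25 lay below 0 and the median was -0.0012, led by the dim probe sets of Gapdhs (0.35 ± 0.12), Phka2 (-0.39 ± 0.17), Pklr (0.28 ± 0.13) and Hkdc1 (-0.22 ± 0.12).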

How the data were processed

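The authors deposited log2 expression values for 31099 probe sets on 6 arrays, made with RMA and R 2.11.0 per the submitters' processing notes. Since RMA gives the arrays nearly the same distribution, a change in total RNA cannot be seen. No source used here states a step before RMA. The authors also deposited log2 differences and p-values per comparison, used as an alternative. Members and gene lists were chosen with earlier results of these data known.

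A linear model (limma 3.58.1, R 4.3.3, lmFit and eBayes) was fitted with 1 mean per diet over all 6 arrays and no block. There were 3 residual and 5.28 prior degrees of freedom and a median standard error of 0.144. The 57 Affymetrix control probe sets were left out, which left 31042. Adjusted p is by Benjamini-Hochberg over these, with a threshold of 0.05. Gene symbols are those of the platform annotation, brought up to date by Entrez identifier with the RefSeq table of GRCr8. Precision is limited by the number of arrays. The arrays of a diet correlated across probe sets with r between 0.993 and 0.996.

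Every member was named. Values on every array were given for a fixed panel and for the 6 members with the smallest p per comparison. Further probe sets of a member were named where they differed in sign or by over 0.3, and the second set of Pgm1 was added. Of the wider list, the 4 genes with the smallest p per comparison were named. The fit was tested on simulated data with independent normal noise. Recovery was required there only for changes larger than any reported for a member, so power at the sizes seen here is not shown. Alternatives covered normalization, filters, priors, weights, probe set rules, the replicate block and leaving out arrays. Promoter sequences are from RefSeq, assembly GRCr8, and 30 of the 32 genes were matched by symbol.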

Additional observations from a re-analysis of the deposited data

How the results depend on the processing

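Under the 22 alternatives 0 of the 31 members passed the limma test in any comparison, with adjusted p values of the members no lower than 0.0956 for Western plus DHA against Control, 0.616 for Western plus DHA against Western and 0.435 for Western against Control. Of 680 member differences per comparison under these alternatives, 41, 33 and 53 had another sign than the main value, in the same order. Many alternatives, among them the priors, the filters and the replicate block, cannot change a difference, so these counts understate how far signs depend on single arrays. Leaving out 1 array changed the sign, in at least 1 such fit, of 13, 15 and 21 of the 31 members in that order. The labels state no pairing of the replicate numbers. Same-numbered arrays deviated with r = 0.20 between Control and Western plus DHA, -0.21 between Control and Western and -0.23 between Western and Western plus DHA. These values cannot tell whether arrays of the same number were handled together. With the replicate block 0 members were called, and 6, 3 and 0 were lower at an unadjusted p under 0.05. With Western numbers crossed in the block, chosen after seeing the data, 2 probe sets were called for Western plus DHA against Control.

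Over all probe sets, 1 was called for Western plus DHA against Control. It was 0 with 4 arrays, with representative probe sets alone and without both Control 1 and Western plus DHA 2, 2 at an adjusted p under 0.1 and with probe sets averaged per gene, and 0 to 2 with 1 array left out. For Western plus DHA against Western 0 were called, and 1 with array weights, with an intensity trend, after median centring, after renewed quantile normalization, or at an adjusted p under 0.1. Leaving out 1 array, the median of the members ranged from -0.23 to -0.036 for Western plus DHA against Control, from -0.30 to -0.0070 against Western and from -0.12 to 0.078 for Western against Control, the last being 0.078 without both named arrays too. Members below 0 in Western against Control ranged from 10 (without Control 1) to 22, with 10 without both arrays.

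Members lower at an unadjusted p under 0.05 ranged from 1 to 9, from 0 to 6 and from 0 to 3 with 1 array left out, for Western plus DHA against Control, Western plus DHA against Western and Western against Control. Without both arrays they numbered 0 and 1 in the first and second of these, and without dim probe sets 2 in the second. Members higher numbered 2 and 1 without both arrays for Western plus DHA and Western against Control, 1 with the mean of probe sets for Western against Control, and 0 to 1 with 1 array left out for Western plus DHA against Western. The cause of these changes was not tested.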
